A study of Homo sapiens with 12 samples.

Results

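ABCG1, the gene for a membrane transporter that moves cholesterol out of cells, stood lowest in U2OS cells given 2 compounds together, intermediate with either compound alone and highest with solvent, and it is described here with 7 other genes of the same sterol circuit. The set was fixed by name as ABCG1, ABCA1, MYLIP, NR1H2, NR1H3, LPCAT3, APOE and SMPDL3A, which are 8 of the 58735 genes in the count table. It was chosen by the measured counts of ABCG1, which were lower with the inhibitor PNKP1i and lower still with both compounds, so those values are given as description, with no test. U2OS is a line derived from a human osteosarcoma. The 12 RNA-seq libraries, 3 in each group, came from cells kept for 24 h with 10 µM TH10785 plus 10 µM PNKP1i (called both compounds or the combination), 10 µM PNKP1i, 10 µM TH10785, or the solvent DMSO. TH10785 activates OGG1, the glycosylase that cuts oxidised guanine out of DNA, and the labels give no structure for PNKP1i.

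The liver X receptors LXR-alpha (NR1H3) and LXR-beta (NR1H2) are nuclear receptors for oxysterols, the oxidised forms of cholesterol that build up when a cell holds too much of it. Each pairs with a retinoid X receptor (RXR), sits on DNA elements made of a repeated half-site and, without ligand, can hold corepressors there. When switched on they raise the transporters ABCA1 and ABCG1, which pass cholesterol to lipid-poor apolipoprotein and to HDL, the lipid carrier APOE, the ubiquitin ligase MYLIP (also called IDOL), which marks lipoprotein receptors for destruction, and LPCAT3, which puts polyunsaturated fatty acids into phospholipids. SMPDL3A, a secreted phosphodiesterase, is an LXR target in human macrophages.

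The receptors' element, known as DR4, was searched as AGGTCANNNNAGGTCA on both strands of RefSeq promoter windows (GRCh38.p14), each reaching from 250 bases before a gene's start to 50 after it, with up to 2 mismatches in the 12 letters that are not N. Windows were found for 6 of the 8 genes, 11 windows in all; ABCG1 and SMPDL3A had none and were not searched. Of the 11, only the ABCA1 window held a match, at 69 to 54 bases before the start on the strand opposite to the gene, with 2 mismatches; 2.34% of the 35116 windows in the table held a match at this setting. In the orientation of the motif that site reads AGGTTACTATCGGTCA. The window is shown with the match in capitals (chr9:104928106-104928405, minus strand), together with the window of MYLIP (chr6:16128836-16129135, plus strand), the gene with the largest difference after ABCG1 for both compounds against DMSO, where no match was found.
ABCA1: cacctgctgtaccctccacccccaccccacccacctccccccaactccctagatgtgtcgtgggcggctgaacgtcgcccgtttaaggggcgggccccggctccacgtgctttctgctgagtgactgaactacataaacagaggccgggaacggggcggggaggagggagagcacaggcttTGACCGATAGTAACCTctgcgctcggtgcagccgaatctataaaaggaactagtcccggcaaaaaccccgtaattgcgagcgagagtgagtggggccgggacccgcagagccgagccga
MYLIP: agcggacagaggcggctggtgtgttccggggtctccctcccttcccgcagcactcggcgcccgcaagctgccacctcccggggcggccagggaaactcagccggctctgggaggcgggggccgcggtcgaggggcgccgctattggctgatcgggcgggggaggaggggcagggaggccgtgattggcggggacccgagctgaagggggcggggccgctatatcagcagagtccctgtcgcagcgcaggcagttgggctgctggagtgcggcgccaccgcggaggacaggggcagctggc
A match describes these letters and is not a measured binding site, and the lack of a match concerns only this window.

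Total counts ran from 16225339 to 21546369 per library, and all 8 genes passed the filter on low counts that left 17290 tested genes. The labels do not say whether the 3 libraries of a group are separate cultures, so a p-value covers only the spread among these libraries, which may be technical. Levels are in CPM, the usual depth-scaled count (here on library totals scaled by TMM), given as mean ± SD over 3 libraries. TH10785 replicate 3 stood apart, at -54.5 on the first principal component against -2.5 and -10.1 for the other TH10785 libraries, and results that rest on it are also given without it. In the combination libraries, genes with a GC content under 40% lay a median of 0.46 to 0.80 above the DMSO mean on the log2 scale and genes over 60% lay at -0.37 to -0.34; values refitted with offsets for GC content and transcript length are given where they bear on a result. Of 9 mesenchymal and osteoblast markers 5 had a mean of at least 1 CPM, led by SPARC, COL1A1 and VIM, while COL1A2, SP7 and BGLAP were near 0 and IBSP was at 0 in all 12 libraries. Their summed level was 2080 to 2570 CPM with both compounds, 4260 to 4380 CPM with PNKP1i, 3880 to 4540 CPM with TH10785 and 4070 to 4860 CPM with DMSO. ALPL, a listed marker, did not follow the sum, with means of 8.43 CPM with both compounds, 3.04 CPM with PNKP1i, 10.8 CPM with TH10785 and 3.03 CPM with DMSO. The epithelial list summed to 1200 to 1480 CPM with both compounds, 1960 to 2470 CPM with PNKP1i, 2400 to 3680 CPM with TH10785 and 2010 to 2340 CPM with DMSO, nearly all of it KRT8 and KRT18. KRT8 averaged 763 CPM with both compounds and 1610 CPM with DMSO, while KRT18 averaged 539 and 552 CPM, EPCAM 3.65 and 3.41 CPM and CDH1 2.54 and 1.99 CPM in the same order. In the hepatocyte list only SERPINA1 passed 1 CPM, and the list summed to 60.3 to 76.8 CPM with both compounds, 76.6 to 106 CPM with PNKP1i, 85.8 to 119 CPM with TH10785 and 71.6 to 98.2 CPM with DMSO. None of the 7 macrophage markers reached a mean of 1 CPM, and they summed to between 0.62 and 1.71 CPM over the 12 libraries. The part of these shifts in the results below was not tested. In bulk RNA, fewer cells that express a gene and less of its RNA per cell cannot be told apart.

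ABCG1 (ENSG00000160179, chromosome 21, 42199689 to 42297244, plus strand) had a separate level in each of the 4 groups. It stood at 1.74, 1.36 and 1.45 CPM in the combination libraries, from 36, 28 and 32 counts. With PNKP1i alone it was at 5.24, 9.31 and 6.32 CPM, and with TH10785 alone at 12.4, 12.1 and 13.0 CPM. With DMSO it was at 16.8, 18.8 and 18.1 CPM. No group overlapped its neighbour, and the spread was widest with PNKP1i, where replicate 2 was the high library. Over all tested genes, the combination stood apart, in either direction, from DMSO for 53.6%, from PNKP1i for 58.2% and from TH10785 for 52.2%. PNKP1i stood apart from DMSO for 25.9%. As a description, the fitted difference was -3.56 (SE 0.22) on the log2 scale for both compounds against DMSO, a ratio of 0.085, and -1.36 (SE 0.19) for PNKP1i against DMSO. Both compounds against PNKP1i gave -2.19 (SE 0.22) and both against TH10785 -3.04 (SE 0.22). With the GC and length offsets these 4 differences were -3.37, -1.40, -1.97 and -2.87.

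The difference between TH10785 and DMSO was not used in choosing the gene. ABCG1 averaged 12.5 ± 0.5 CPM with TH10785 and 17.9 ± 1 CPM with DMSO (SD, n = 3 each), and the 3 libraries of each group did not overlap, as for 19.7% of all tested genes. The log2 difference of -0.52 (SE 0.19, 95% interval -0.91 to -0.12) did not pass edgeR's quasi-likelihood test (Benjamini-Hochberg adjusted p = 0.224).

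**Figure D1:**
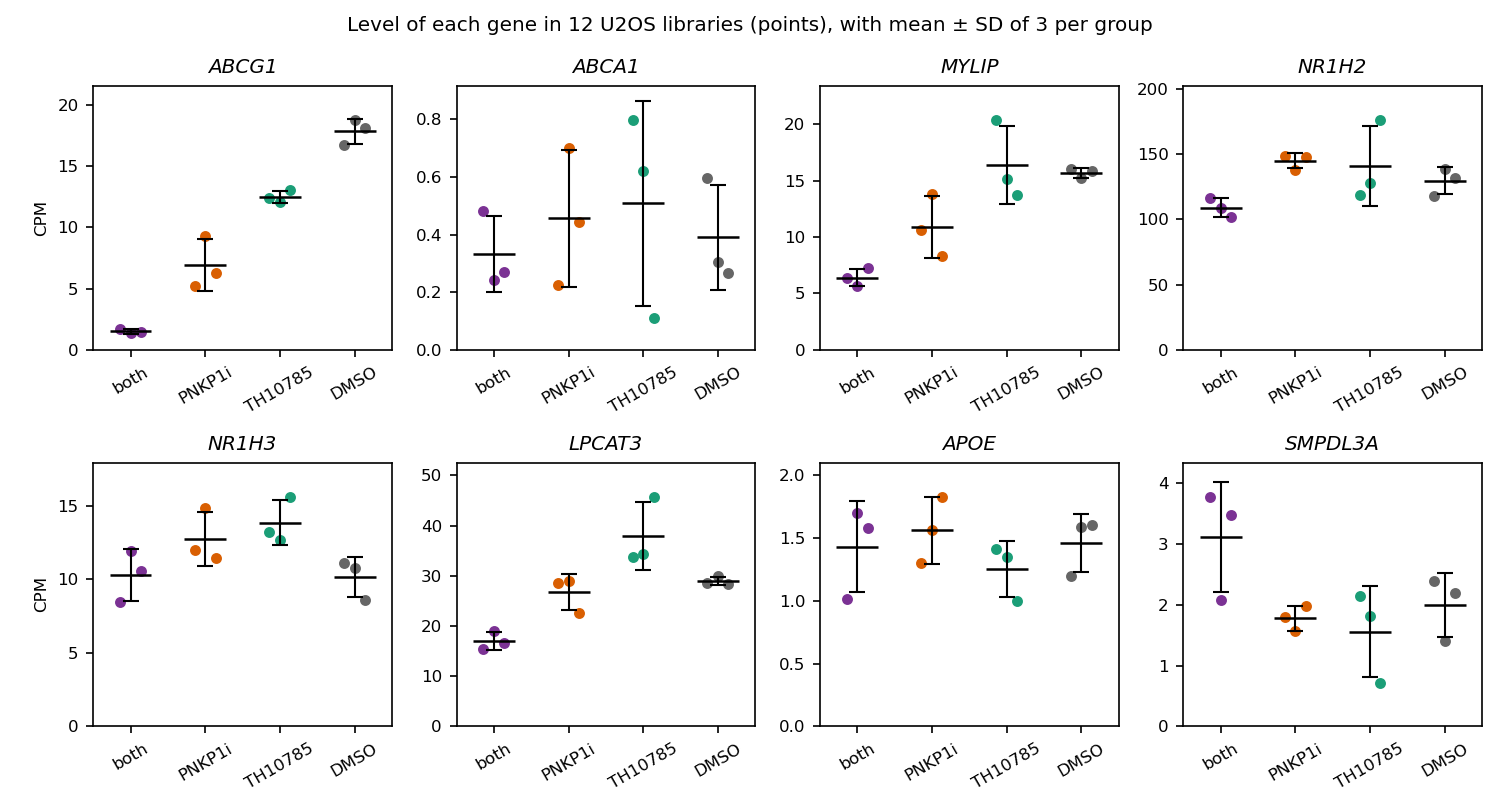
Level in CPM (linear axes from 0) of the 8 genes in each of the 12 libraries, by group; points are libraries and bars are mean ± SD of 3. The 4 groups of ABCG1 do not overlap and stand lowest with both compounds, MYLIP and LPCAT3 are lowest with both compounds, and ABCA1, APOE and SMPDL3A lie below 4 CPM throughout.

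ABCA1 (ENSG00000165029, chromosome 9, 104781002 to 104928237, minus strand), the other exporter of the set, was barely detected. It had 10, 5 and 6 counts in the combination libraries, 4, 13 and 9 with PNKP1i, 13, 12 and 2 with TH10785 and 10, 5 and 5 with DMSO. All 4 groups overlapped. At this depth a difference in ABCA1 was not detectable: for TH10785 against DMSO the log2 difference was 0.38 with a 95% interval of -0.94 to 1.70 (edgeR adjusted p = 0.83), and for both compounds against TH10785 it was -0.60 (-1.91 to 0.71, adjusted p = 0.459). The promoter match shown above belongs to a gene with at most 13 counts in any library.

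Per kilobase of exon, which allows genes to be compared, NR1H2 was the highest and ABCA1 the lowest of the set in all 12 libraries. ABCG1 was the fourth highest in the DMSO libraries, at 2.92 ± 0.17 CPM per kilobase, above NR1H3 at 2.23 ± 0.3. In the 9 treated libraries ABCG1 lay below NR1H3. With both compounds it was at 0.248 ± 0.033 CPM per kilobase, below SMPDL3A (1.33 ± 0.38) and APOE (0.654 ± 0.17) in each of the 3 libraries. ABCG1 exceeded ABCA1 per kilobase by 6.68 to 10.4 times with both compounds, 24.7 to 43.1 times with PNKP1i, 28.8 to 218 times with TH10785 and 51.9 to 126 times with DMSO, ratios that rest on the few ABCA1 counts.

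NR1H2 (chromosome 19, 50329653 to 50382982, plus strand), which encodes LXR-beta, had 116, 109 and 102 CPM with both compounds. It had 149, 138 and 148 CPM with PNKP1i, 119, 128 and 176 CPM with TH10785 and 118, 139 and 132 CPM with DMSO. The combination libraries lay below all the others, and the high TH10785 value is that of replicate 3. Over all tested genes, the combination libraries lay below without overlap for 25.2% against DMSO, 27.9% against PNKP1i and 24.9% against TH10785. NR1H3 (chromosome 11, 47248300 to 47269032, plus strand), which encodes LXR-alpha, had 8.42, 11.9 and 10.5 CPM with both compounds, 12, 14.8 and 11.4 CPM with PNKP1i, 13.2, 12.7 and 15.6 CPM with TH10785 and 11.1, 10.8 and 8.56 CPM with DMSO. Each single compound gave 3 libraries above all 3 DMSO libraries, as for 9.64% of all tested genes with TH10785 and 11.7% with PNKP1i. The NR1H3 values of the combination overlapped those of DMSO. Per kilobase NR1H2 exceeded NR1H3 by 11 to 16.7 times with both compounds, 11.2 to 15.7 times with PNKP1i, 10.8 to 13.6 times with TH10785 and 12.9 to 18.6 times with DMSO, ranges that overlap. NR1H3 shares 4.17% of its exonic bases with ACP2 on the other strand, and reads from the shared part cannot be assigned without strand.

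For both compounds against TH10785, NR1H2 fell by 0.37 on the log2 scale (SE 0.13, edgeR adjusted p = 0.0331), but the call ended without TH10785 replicate 3 (-0.18, adjusted p = 0.188), without combination replicate 2 (-0.37, 0.0584) or without combination replicate 3 (-0.33, 0.108) and in a fit of only the groups compared (-0.37, 0.107), and the difference was 0.007 with the GC and length offsets. NR1H2 has a GC content of 60.9%, against a median of 49.3% for tested genes. NR1H3 was at -0.43 (SE 0.18, 95% interval -0.81 to -0.05, adjusted p = 0.0649) and did not pass, though it did with DESeq2 (-0.45, 0.0381) and without combination replicate 2 (-0.54, 0.0388). For TH10785 against DMSO, neither NR1H2 (0.12, -0.16 to 0.40, adjusted p = 0.732) nor NR1H3 (0.45, 0.07 to 0.83, adjusted p = 0.262) passed.

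MYLIP (ENSG00000007944, chromosome 6, 16129125 to 16148248, plus strand) had the largest difference of the set after ABCG1 for both compounds against DMSO and against TH10785. It was at 6.34, 5.67 and 7.24 CPM with both compounds, 10.6, 13.8 and 8.3 CPM with PNKP1i, 20.4, 15.2 and 13.8 CPM with TH10785 and 16, 15.2 and 15.8 CPM with DMSO. The combination libraries were the 3 lowest of the 12. The PNKP1i libraries lay below those of DMSO, as for 14.2% of all tested genes, and the highest PNKP1i library just passed the lowest TH10785 one. The TH10785 libraries straddled those of DMSO. For both compounds against TH10785, MYLIP fell by 1.35 on the log2 scale (SE 0.20, edgeR adjusted p = 0.000167) and was called in each of the 19 settings tried (-1.48 to -1.18). All 3 combination libraries lay below all 3 of TH10785, as for 24.9% of all tested genes. Against DMSO the difference is a description, at -1.29 (SE 0.20) for both compounds and -0.53 (SE 0.20) for PNKP1i. TH10785 against DMSO gave 0.06 (95% interval -0.35 to 0.47, adjusted p = 0.914).

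Among the lipoprotein receptors that MYLIP marks for destruction, VLDLR and LRP8, the 2 tested here, were higher with both compounds than with DMSO. Of all tested genes 41% were called in that comparison, 21.3% higher. VLDLR, the very-low-density lipoprotein receptor, rose to 37.0 ± 2.0 CPM with both compounds, against 18.5 ± 2.6 CPM with DMSO (log2 0.997, SE 0.15, edgeR adjusted p = 9.78e-05). LRP8, a receptor for apolipoprotein E and reelin, rose to 56.1 ± 5.5 CPM, against 38.6 ± 3.9 CPM with DMSO (0.54, SE 0.12, adjusted p = 0.00201). VLDLR also rose with both compounds against TH10785 (0.91, SE 0.15, adjusted p = 0.000284), where LRP8 did not pass (0.23, SE 0.12, adjusted p = 0.129). With the GC and length offsets VLDLR was at 0.71 against DMSO and 0.435 against TH10785 (edgeR adjusted p = 0.000552 and 0.0185). LRP8 was at 0.58 against DMSO with the offsets (adjusted p = 0.000255). These are RNA levels, the receptor proteins were not measured, and a link to MYLIP was not tested.

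LPCAT3 (ENSG00000111684, chromosome 12, 6976186 to 7018510, minus strand) was highest with TH10785 and lowest with both compounds. It was at 15.5, 19.0 and 16.6 CPM with both compounds, 28.6, 28.9 and 22.6 CPM with PNKP1i, 33.6, 34.3 and 45.7 CPM with TH10785 and 28.6, 29.9 and 28.4 CPM with DMSO. Only PNKP1i and DMSO overlapped. Groups stood apart, in either direction, for 53.6% of all tested genes with both compounds against DMSO and 19.7% with TH10785 against DMSO. LPCAT3 fell by 1.16 on the log2 scale with both compounds against TH10785 (SE 0.15, edgeR adjusted p = 6.64e-05) and was called in each of the 19 settings. All 3 combination libraries lay below all 3 of TH10785, as for 24.9% of all tested genes. TH10785 against DMSO gave 0.39 (SE 0.15, 95% interval 0.07 to 0.70, adjusted p = 0.246), which did not pass. As a description, both compounds against DMSO gave -0.77 (SE 0.15) and PNKP1i against DMSO -0.12 (SE 0.15). In GENCODE 29, 65.6% of the exonic bases of LPCAT3 are shared with EMG1, a ribosome assembly gene on the opposite strand, so reads of the pair cannot be told apart without strand. EMG1 went the other way, at 73.1, 88.5 and 59.3 CPM with both compounds and 54.6, 48.5 and 28.4 CPM with DMSO (log2 0.75, SE 0.19, adjusted p = 0.00591). For both compounds against TH10785 EMG1 did not pass (0.32, SE 0.19, adjusted p = 0.194), and the part of shared reads in the LPCAT3 values was not tested.

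APOE and SMPDL3A were low and overlapped between most groups. APOE (chromosome 19, 44905754 to 44909393, plus strand) had 21, 35 and 35 counts with both compounds, 23, 29 and 37 with PNKP1i, 23, 26 and 18 with TH10785 and 20, 26 and 30 with DMSO. No pair of groups was apart. Its log2 difference was -0.23 for TH10785 against DMSO (95% interval -0.87 to 0.41, edgeR adjusted p = 0.778) and 0.20 for both compounds against TH10785 (-0.43 to 0.83, adjusted p = 0.625). SMPDL3A (chromosome 6, 122789049 to 122809720, plus strand) had 78, 43 and 77 counts with both compounds, 32, 29 and 40 with PNKP1i, 35, 35 and 13 with TH10785 and 40, 23 and 41 with DMSO. It was the only gene of the set that passed the test upwards, by 1.0 on the log2 scale for both compounds against TH10785 (SE 0.34, adjusted p = 0.0256), and those groups overlapped. That call ended without TH10785 replicate 3 (0.66, adjusted p = 0.114), without combination replicate 1 (0.84, 0.0944) or replicate 3 (0.91, 0.0817), in a fit of only the groups compared (adjusted p = 0.0667) and with the GC and length offsets (0.53, 0.178). SMPDL3A has a GC content of 41.2%, the lowest of the set.

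Counted over the set, 0 of 8 genes were called for TH10785 against DMSO, where 0.561% of all tested genes were called; 3 (ABCG1, LPCAT3 and NR1H3) had an unadjusted p under 0.05, and DESeq2 also called 0. For both compounds against TH10785, 4 were called lower (ABCG1, MYLIP, LPCAT3 and NR1H2) and 1 higher (SMPDL3A), beside 42.3% of all genes called, 19.7% lower and 22.7% higher. The count was 3 of 8 without TH10785 replicate 3 or combination replicate 3. ABCG1 stands in it only as a description. The median log2 difference of the set was -0.51 there and 0.02 over all tested genes. That median includes ABCG1, whose values chose the set, so it is a description and nothing is read from it. In the comparisons that chose the set, 3 of 8 were called for both compounds against DMSO (ABCG1, MYLIP and LPCAT3), 4 for both against PNKP1i (the same genes and NR1H2) and 1, ABCG1, for PNKP1i against DMSO. The backgrounds were 41%, 46% and 0.197% of all genes, and nothing is read from these counts. The ABCG1 call for PNKP1i ended without PNKP1i replicate 1 or 3, where 0 of 8 were called. The comparisons with DMSO share their control libraries, and those of the combination share its 3 libraries.

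**Figure D2:**
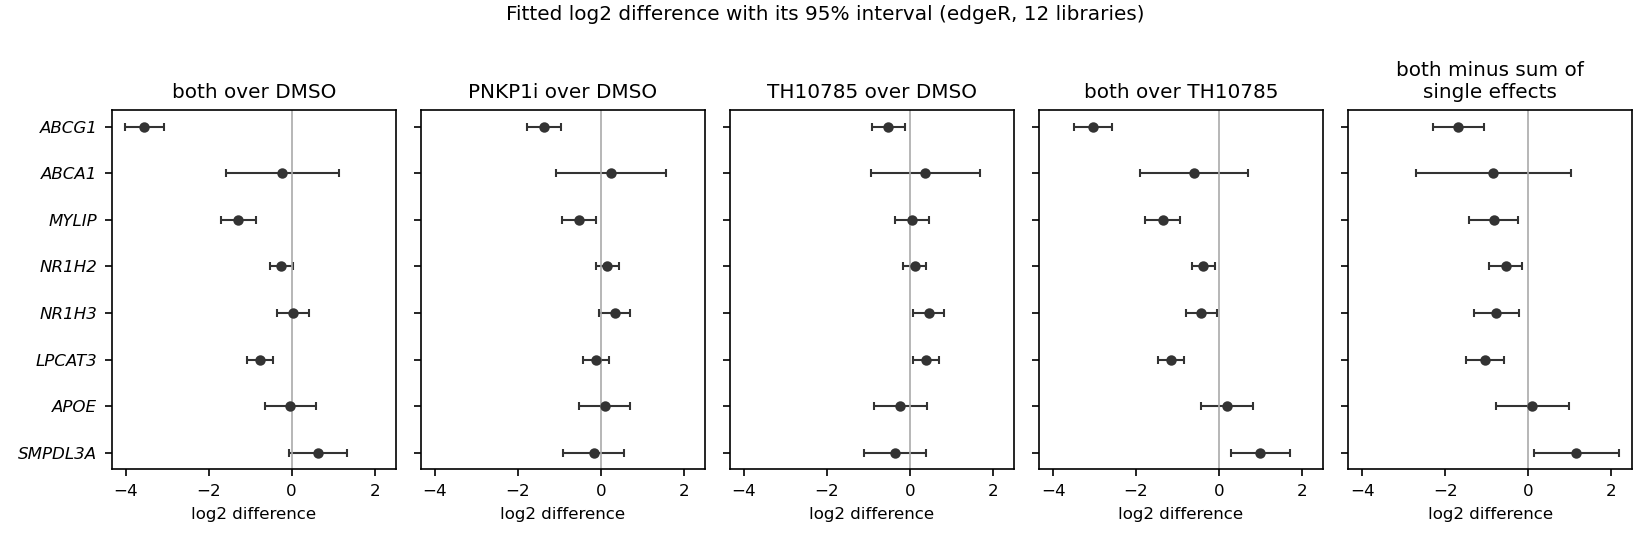
Fitted log2 difference of the 8 genes with its 95% interval in 5 comparisons from 1 edgeR fit over 12 libraries; the first group named is on top of the ratio and the last panel is the combination minus the sum of the single effects. The ABCG1 points lie left of 0 in every panel, down to -3.56, while the ABCA1 intervals span 0 throughout.

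Whether the pair of compounds did more than the sum of the single effects was tested as an interaction on the log2 scale. For ABCG1, as a description, the single differences of -1.36 with PNKP1i and -0.52 with TH10785 sum to -1.88, and the combination was at -3.56, which is -1.68 (SE 0.29) beyond the sum. For LPCAT3 the sum was 0.27 and the combination was at -0.77, an interaction of -1.04 (SE 0.21, edgeR adjusted p = 0.00587) that was called in each of the 18 settings. For MYLIP the sum was -0.46 and the combination was at -1.29 (interaction -0.83, SE 0.28, adjusted p = 0.0341). For NR1H3 the sum was 0.79 and the combination was at 0.03 (-0.76, SE 0.26, adjusted p = 0.0328), and for NR1H2 the sum was 0.28 and the combination was at -0.25 (-0.53, SE 0.19, adjusted p = 0.0417). SMPDL3A (1.17, SE 0.49, adjusted p = 0.0777), ABCA1 (-0.84, SE 0.88, adjusted p = 0.496) and APOE (0.10, SE 0.42, adjusted p = 0.878) did not pass. LPCAT3, MYLIP, NR1H3 and NR1H2 were thus called lower for the interaction, beside 30.6% of all genes (14.1% lower). ABCG1 brings the count to 5 of 8, but its values chose the set, so it is a description only. The count was 2 to 5 with a library left out.

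The calls of MYLIP, NR1H3 and NR1H2 depended on single libraries. MYLIP lost its call without DMSO replicate 1, 2 or 3, PNKP1i replicate 1 or 2, TH10785 replicate 1 or combination replicate 1 or 2 (-0.87 to -0.62, edgeR adjusted p = 0.0554 to 0.102) and held it with the GC and length offsets (-0.94, adjusted p = 0.0121). NR1H3 lost it without DMSO replicate 3, PNKP1i replicate 1 or 2 or combination replicate 1 or 3 (adjusted p = 0.0501 to 0.0894) and with the offsets (-0.43, adjusted p = 0.164). NR1H2 lost it without DMSO replicate 1 or 3, any PNKP1i replicate, TH10785 replicate 3 or combination replicate 2 or 3 (adjusted p = 0.0504 to 0.0962) and was at -0.05 with the offsets (adjusted p = 0.817).

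Genes around the circuit were followed in 6 lists of 68 genes, of which 57 were tested. With both compounds against DMSO 12 rose and 11 fell, or 40.4% of those tested, beside 41% of all genes; 15 were called without DMSO replicate 2. With PNKP1i against DMSO 0 of 57 passed edgeR's test over all genes, beside 0.197% of all genes; 8 had an unadjusted p under 0.05, and DESeq2 called 1. With TH10785 against DMSO 4 rose and 0 fell, or 7.02%, beside 0.561% of all genes. That count was 2 without DMSO replicate 1, 2 or 3, PNKP1i replicate 2 or 3, or TH10785 replicate 2. The lists were chosen with earlier results of these data known, so nothing is read from these shares. The median log2 difference of the 57 genes was -0.06 for both compounds, -0.08 for PNKP1i and 0.01 for TH10785, beside 0.05, -0.02 and -0.02 for all tested genes.

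Among the receptors' partners, 4 of 11 tested genes fell and 1 rose with both compounds against DMSO, or 45.5%, near the 41% of all genes called. RXRA, an RXR that pairs with both LXRs, fell to 116 ± 8.9 CPM with both compounds, against 204 ± 13 CPM with DMSO (log2 -0.82, SE 0.12, edgeR adjusted p = 7.6e-05). Its fall was -0.41 with the GC and length offsets (adjusted p = 0.00132). GPS2, a subunit of the corepressor complex, fell by 0.74 (adjusted p = 0.0124), a call that ended without DMSO replicate 2 (-0.67, adjusted p = 0.0532) or combination replicate 1 (-0.58, 0.0605). TBL1X, another subunit, fell by 0.34 (adjusted p = 0.0169), which ended without DMSO replicate 3 (-0.26, 0.0873) or combination replicate 3 (-0.32, 0.0602). HDAC3 also fell and NRIP1, a ligand-dependent corepressor, rose; HDAC3 and NRIP1 were named after their values were seen, to complete the count.

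Of 11 tested LXR target genes outside the set, 2 fell and 2 rose with both compounds against DMSO, or 36.4%, beside 41% of all genes. SREBF1, whose SREBP-1c product drives fatty acid synthesis, had 99.1, 98.7 and 108 CPM with both compounds, 188, 165 and 193 CPM with PNKP1i, 279, 295 and 374 CPM with TH10785 and 200, 236 and 226 CPM with DMSO. The combination libraries were the lowest, the TH10785 libraries the highest, and no groups overlapped. Over all tested genes, groups stood apart from DMSO for 53.6% with both compounds, 25.9% with PNKP1i and 19.7% with TH10785. SREBF1 fell by 1.11 on the log2 scale against DMSO (SE 0.13, edgeR adjusted p = 1.18e-05) and by 1.63 against TH10785 (adjusted p = 2.2e-06). RNF145, a ubiquitin ligase that responds to sterols, rose to 155 ± 13 CPM, against 86.4 ± 2.1 CPM with DMSO (0.84, SE 0.12, adjusted p = 9.47e-05). SREBF1 and RNF145 held these calls in all 19 settings. With the GC and length offsets SREBF1 was at -0.66 against DMSO and -1.27 against TH10785, and RNF145 was at 0.72 against DMSO. LPL, lipoprotein lipase, fell by 0.71 (adjusted p = 0.0303), a call that ended without DMSO replicate 1 or 3 or combination replicate 1 or 2 (adjusted p = 0.0549 to 0.149). MERTK rose, named after its value was seen. SCD and FASN, which are targets of both LXR and SREBP, passed with TH10785 against DMSO (1.22 and 1.24, adjusted p = 1.86e-05 and 0.000212) and fell with both compounds against TH10785 (-1.34 and -1.31, adjusted p = 2.64e-06 and 2.05e-05). Neither passed edgeR's test for both compounds against DMSO (-0.115 and -0.065, adjusted p = 0.457 and 0.753). SCD averaged 407 CPM with both compounds and 441 CPM with DMSO, and FASN 808 and 845 CPM in the same order.

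**Figure D3:**
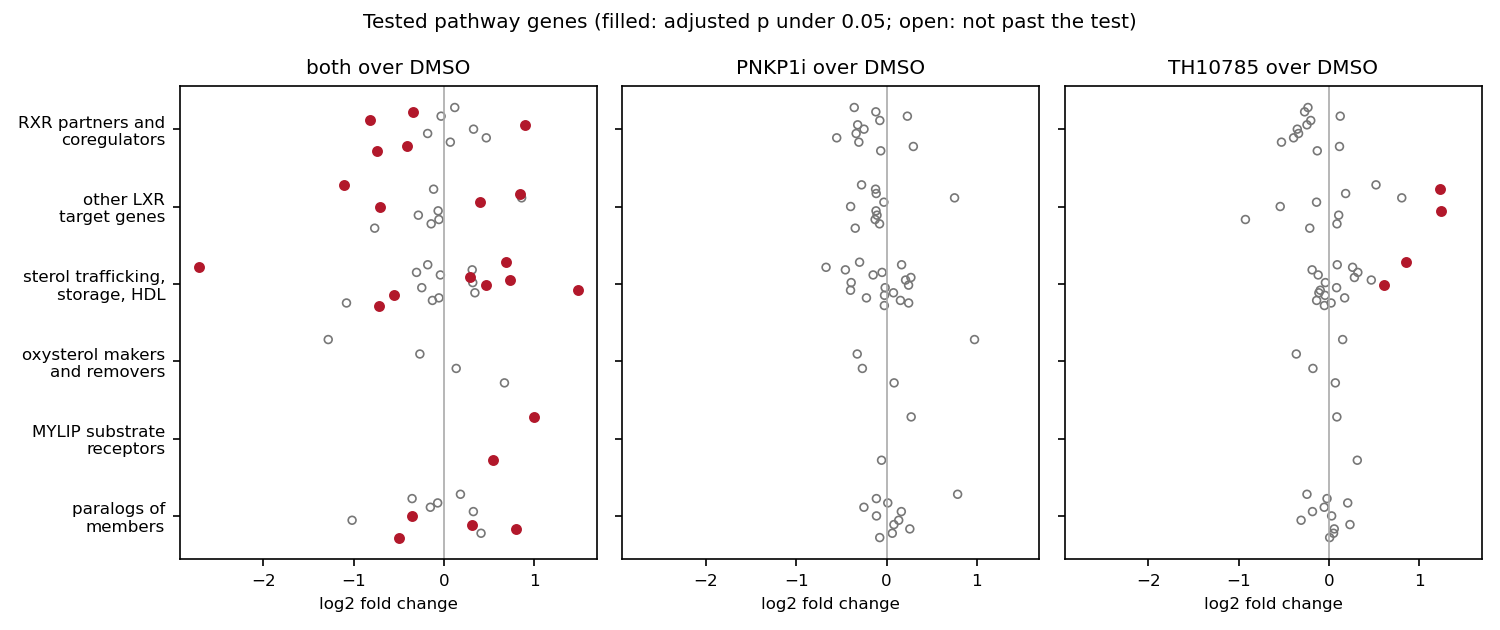
Log2 fold change over DMSO of the 57 tested genes in 6 lists around the LXR circuit, with both compounds, PNKP1i and TH10785; each point is a gene, filled where the adjusted p was under 0.05. Filled points number 23 with both compounds (12 right of 0 and 11 left), 0 with PNKP1i and 4 with TH10785, all 4 to the right.

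Of 18 tested genes for trafficking, storage and HDL, 5 rose and 3 fell with both compounds against DMSO, or 44.4%, near the 41% of all genes called. NPC1, which lets cholesterol leave the lysosome, rose to 51.2 ± 12 CPM with both compounds, against 30.8 ± 3.3 CPM with DMSO (log2 0.73, SE 0.15, edgeR adjusted p = 0.00105). GRAMD1C, a carrier of cholesterol from the plasma membrane to the endoplasmic reticulum, rose by 1.48 (SE 0.33, adjusted p = 0.00223) from a low level, and its relative GRAMD1A fell by 0.55 (adjusted p = 0.00218), a call that ended with the GC and length offsets (-0.16, adjusted p = 0.178). ABCA7 and SOAT2 also fell against DMSO (-0.72 and -2.71) and STARD4, LIPA and NPC2 rose, named after their values were seen, to complete the count. Against TH10785 3 rose and 4 fell, or 38.9%, beside 42.3% of all genes. There GRAMD1C rose (1.58, adjusted p = 0.00166) and SOAT2, below 1 CPM in every library, fell (-2.97, adjusted p = 0.00208). SCARB1, the HDL receptor, fell to 106 ± 4.9 CPM with both compounds, against 163 ± 29 CPM with TH10785 (-0.62, SE 0.15, adjusted p = 0.00331). With DMSO SCARB1 was at 130 ± 18 CPM, and the combination did not pass edgeR's test against it (-0.30, adjusted p = 0.106). Among 4 tested genes that make or remove oxysterols 0 were called by edgeR for both compounds against DMSO, and 1 had an unadjusted p under 0.05. These genes were low, with group means from 0.201 CPM (SULT2B1) to 2.31 CPM (CYP7B1), both in the combination. Their log2 differences had SEs of 0.26 (CYP7B1) to 0.60 (SULT2B1, at -1.28), so the lack of calls does not show that they were unchanged. STARD4 and LIPA were also called with TH10785 against DMSO (0.86 and 0.61, adjusted p = 0.0432 and 0.0455), near the threshold. Without DMSO replicate 1, 2 or 3, TH10785 replicate 1 or 2, or PNKP1i replicate 2 or 3, both lost the call, and LIPA also without PNKP1i replicate 1 or combination replicate 3 (adjusted p = 0.0525 to 0.227 over these). Both also lost it in a fit of only the groups compared (0.112 for STARD4 and 0.15 for LIPA).

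Of 11 tested paralogs of the 8 genes 2 rose and 2 fell with both compounds against DMSO, or 36.4%, beside 41% of all genes. ABCG2, a multidrug exporter of the ABCG family, was at 3.08 ± 0.46 CPM with both compounds and 1.85 ± 0.63 CPM with TH10785 (log2 0.74, SE 0.29, edgeR adjusted p = 0.0452), a call held in 4 of 19 settings and at 0.17 with the GC and length offsets (adjusted p = 0.704). The lysophospholipid acyltransferase LPCAT1 was higher with both compounds than with DMSO (log2 0.31, edgeR adjusted p = 0.0264) and LPCAT4 lower (-0.35, adjusted p = 0.0316). Both ended in several settings: LPCAT1 without DMSO replicate 1 or 2 or combination replicate 1 (adjusted p = 0.0596 to 0.0936), without the low-count filter (0.0716) and with only the groups compared (0.0566), and LPCAT4 without DMSO replicate 2 or 3, PNKP1i replicate 1 or 3, or combination replicate 1 or 3 (0.0554 to 0.128), without the filter (0.106) and with the GC and length offsets (-0.16, 0.243). ABCA2, an endolysosomal lipid transporter, fell by 0.50 (adjusted p = 0.00655) and was at -0.004 with the GC and length offsets (adjusted p = 0.981).

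The genes with the profile most like that of ABCG1 were found by the root-mean-square difference, over the 12 libraries, of log2 CPM minus the gene's DMSO mean, among 12448 genes with a symbol and a mean log2 CPM of at least 1. The nearest were RNF43, a ubiquitin ligase (0.60), the non-coding RNA H19 (0.65), the adaptor GRB7 (0.75), HR, the hairless corepressor (0.75), the receptor NPFFR1 (0.75) and LRRC15, a membrane protein (0.79). HR had 20.1, 53.8 and 60.2 CPM with both compounds, 214, 285 and 224 CPM with PNKP1i, 153, 156 and 198 CPM with TH10785 and 276, 318 and 328 CPM with DMSO. All 6 had lower group means with both compounds than in any other group. They were picked for closeness to ABCG1, which was lowest there, so nothing is read from this. Some had few counts in the combination libraries, such as RNF43 (7, 4 and 20) and H19 (6, 19 and 13). None of the 6 matched the ABCG1 mean of the PNKP1i libraries: their means there lay between -0.65 and -0.36, against -1.39 for ABCG1. MYLIP was ranked 179 and LPCAT3 1288 by the same measure.

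**Figure D4:**
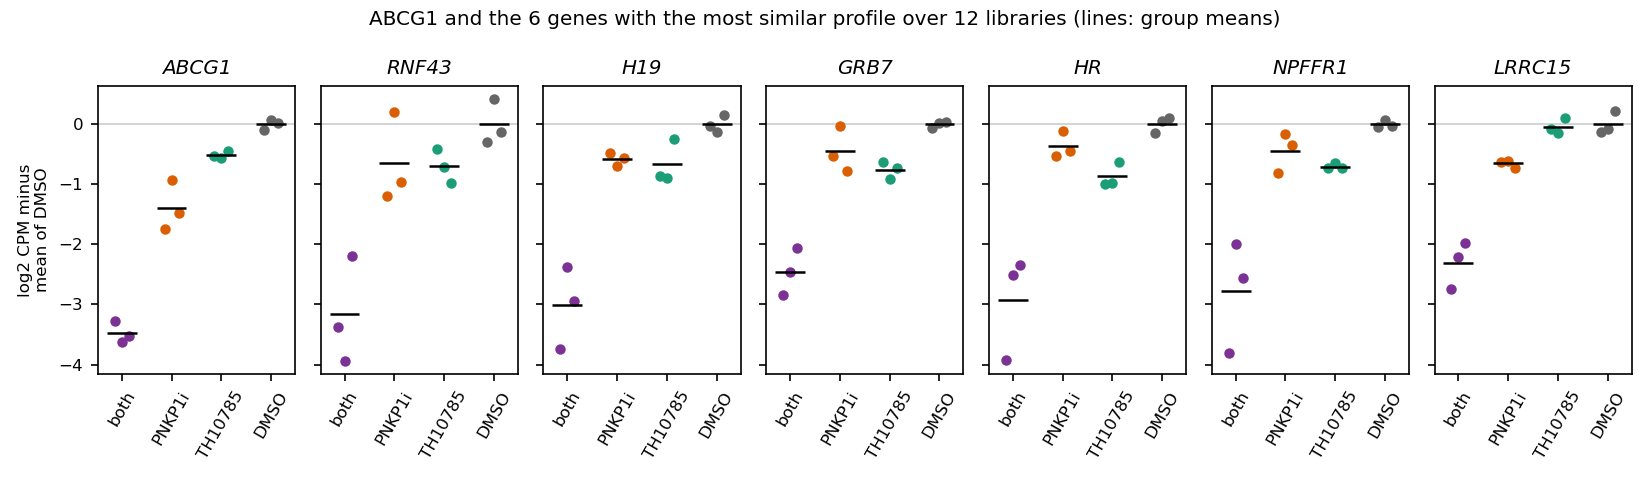
Log2 CPM minus the DMSO mean for ABCG1 and the 6 genes nearest to it, in each of the 12 libraries by group; points are libraries and lines are group means. All 7 genes are lowest with both compounds, and ABCG1 has the lowest mean in the PNKP1i libraries.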

How the data were processed

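RNA from 12 U2OS libraries in 4 groups of 3 was sequenced as 150 bp paired reads, per the labels' protocols. HISAT2 2.0.5, HTSeq 0.6.1 and DESeq2 1.30.1 and the GRCh38 build are named per the submitters' processing notes; the annotation and the strand setting are not given in the sources used here. The deposited raw counts per gene were tested. The authors' deposited normalized table holds a signal equal to counts divided by 1 size factor per library, and was not tested.

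Here edgeR 4.0.16 (R 4.3.3) kept 17290 genes with filterByExpr (minimum count 10, minimum total 15), scaled by TMM and fitted 1 quasi-likelihood model over all 12 libraries, with Benjamini-Hochberg adjustment over all tested genes and calls at an adjusted p under 0.05. Intervals are 95%. Exon lengths and overlaps come from GENCODE 29. The procedure was tested on simulated data. Replicates differed by more than sampling noise in every group.

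The genes and the lists were chosen with earlier results of these data known, and the lists were shortened by a few genes that are not reported here. The genes named are the 8 genes, up to 3 called genes with the smallest p per list and comparison, and the 6 nearest to ABCG1. Some further called genes are named to complete a count. Alternatives were RLE scaling, no filter, the replicate number as a block, GC and length offsets, only the groups compared, DESeq2 1.42.0, and leaving out each library.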

Additional observations from a re-analysis of the deposited data

Results flagged for a closer look

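Each gene below was singled out because the effect of one compound differed with and without the other, by edgeR's interaction test over all genes (log2 scale, combination minus the sum of the single effects). The interaction was called for 30.6% of all tested genes. Groups of 3 libraries are too small for a test of single outlying libraries.

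Of the 8 genes, LPCAT3 gave -1.04 (adjusted p = 0.00587), MYLIP -0.83 (0.0341), NR1H3 -0.76 (0.0328) and NR1H2 -0.53 (0.0417).

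Among lipid synthesis genes the interaction was -1.36 for SREBF1 (edgeR adjusted p = 0.000837), -1.22 for SCD (0.0012) and -1.19 for FASN (0.00452). These 3 were called in each of the 18 settings. VLDLR gave 0.64 (0.0293) and was at -0.04 with the GC and length offsets. Its call was also lost without the low-count filter (0.0646) and without DMSO replicate 3, PNKP1i replicate 2 or 3 or combination replicate 1 or 3 (0.0584 to 0.0887).

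Among coregulators it was 0.93 for NCOR1 (edgeR adjusted p = 0.00827), 1.41 for NCOA2 (0.0102) and -0.82 for HDAC3 (0.00878). With the GC and length offsets NCOR1, NCOA2 and HDAC3 were at 0.51, 0.86 and -0.56 and still called (0.0175, 0.0166 and 0.0181). With a library left out they ran from 0.72 to 1.05, 1.10 to 1.62 and -0.93 to -0.68. NCOA1 (0.90, 0.0102), NRIP1 (1.46, 0.0333) and RXRA (-0.54, 0.0217) were also called, which makes 6 of 11 tested. Among sterol storage and transport genes it was 0.95 for SOAT1 (0.00689), 0.75 for NCEH1 (0.0261) and 1.98 for GRAMD1C (0.0102). With the GC and length offsets these were 0.12 (0.686), 0.05 (0.9) and 1.21 (0.061), and none was called. NCEH1 also lost its call without the low-count filter (0.0872) and without DMSO replicate 1 or 3, PNKP1i replicate 1 or 3 or combination replicate 1 (adjusted p = 0.0528 to 0.0694). SULT2B1, an oxysterol sulfotransferase with low counts, gave -2.41 (0.0269), a call lost with the offsets (-1.95, 0.0763) and without DMSO replicate 3, PNKP1i replicate 1, TH10785 replicate 3 or combination replicate 1 (0.0608 to 0.0705).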

How the results depend on the processing

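The number of the 8 genes called for PNKP1i against DMSO was 1, and 2 in a fit of only the groups compared and 0 to 1 with a library left out. For both compounds against TH10785 it was 5, and 3 with GC and length offsets, 3 with only the groups compared and 3 to 5 with a library left out. For the interaction it was 5, and 3 with the replicate block, 3 with the offsets and 2 to 5 with a library left out. Of the pathway genes 0 were called for PNKP1i against DMSO, and 1 without the low-count filter, 3 with only the groups compared, 1 with DESeq2 and 0 to 1 with a library left out; 23 were called for both compounds against DMSO, and 15 to 29 with a library left out, the lowest without DMSO replicate 2. For TH10785 against DMSO 4 were called, and 2 with the replicate block, 7 with the offsets, 2 with only the groups compared and 2 to 5 with a library left out. For the interaction 18 were called, and 11 to 21 with a library left out, the lowest without PNKP1i replicate 1. Signs turned with the offsets for NR1H2 with both compounds against TH10785 (0.007), PNKP1i (0.008) and DMSO (0.067). They also turned for APOE with both compounds against DMSO (0.343) and PNKP1i (0.256) and for the VLDLR interaction (-0.043). With a library left out, signs turned for TH10785 against DMSO in ABCA1 (-0.039 to 0.86), MYLIP (-0.091 to 0.19) and NR1H2 (-0.058 to 0.26) and for the APOE interaction (-0.052 to 0.29). For PNKP1i against DMSO they turned in ABCA1 (-0.188 to 0.67), LPCAT3 (-0.179 to 0.006) and APOE (-0.028 to 0.226). For both compounds against DMSO they turned in ABCA1 (-0.571 to 0.211), NR1H3 (-0.084 to 0.16) and APOE (-0.157 to 0.172). APOE also turned for both compounds against PNKP1i (-0.259 to 0.069). The cause was not tested.

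Over all genes, 97 were called for TH10785 against DMSO (513 without the filter, 285 with the offsets, 315 with DESeq2, 62 with the block). For PNKP1i against DMSO 34 were called (189, 91, 116 and 15 in the same order, and 1144 with only the groups compared), and for the interaction 5289 (3264 with the offsets). Replicate numbers did not pair the samples: 1 of 18 same-number pairs correlated above 0.1, the highest at 0.125. The replicate block ended the interaction calls of MYLIP (-0.80, edgeR adjusted p = 0.058) and NR1H2 (-0.52, 0.0629), the calls against TH10785 of NR1H2 (-0.36, 0.0533) and ABCG2 (0.75, 0.0652) with both compounds, the LPL call for both compounds against DMSO (-0.71, 0.0513), and the calls for TH10785 against DMSO of STARD4 (0.85, 0.115) and LIPA (0.60, 0.0878).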

Other observations

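SMPDL3B, a membrane-anchored relative of SMPDL3A, averaged 9.71 ± 2.1 CPM with both compounds, 14.8 ± 1.5 CPM with PNKP1i, 7.23 ± 0.18 CPM with TH10785 and 8.56 ± 0.65 CPM with DMSO (SD, n = 3 each). PNKP1i against DMSO gave 0.79 on the log2 scale (SE 0.18), which did not pass edgeR's test (adjusted p = 0.103). Both compounds against PNKP1i gave -0.61 (SE 0.18, adjusted p = 0.0104), a call that ended without combination replicate 1 (-0.43, 0.0506) and with the GC and length offsets (-0.33, 0.103).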
